A study of Mus musculus with 2 samples.

Results

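The 10 genes described here encode the CD3 chains of the T cell receptor and the coreceptors that act beside it: Cd3d, Cd3e, Cd3g, Cd247, Cd8a, Cd8b1, Cd4, Cd28, Cd5 and Cd6. They were matched by symbol to the gene list of the deposited count matrices, and all 10 were among the 27998 genes counted. The study took cells from G422TN, a triple-negative form of the mouse G422 glioma, growing in the brains of Kunming mice. Mice without treatment gave the control library, at day 7 after tumour cells were placed in the brain. The LTS (long-term survivor) library came from mice that had outlived 100 days after a combined therapy, received the same tumour on the other side of the brain and again outlived 100 days. Its tissue was also taken at day 7, and the labels leave unclear from which inoculation that day is counted. Both used a density gradient fraction enriched in immune cells and 3' droplet libraries. The therapy's agents and the number of mice pooled are not given in the labels, and each group is 1 library. No test between the groups was possible, and all intervals are exact 95% intervals that cover counting error only.

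A T cell receptor binds peptide on MHC molecules but cannot signal alone. Signals pass through the CD3 gamma, delta and epsilon chains and through the zeta chain encoded by Cd247, whose cytoplasmic tails are phosphorylated by the kinase Lck. CD8 binds MHC class I and CD4 binds MHC class II, and each brings Lck to the receptor. CD28 adds costimulation on binding CD80 or CD86, while CD5 and CD6 are related scavenger-receptor proteins that tune the signal.

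After keeping barcodes with at least 1000 UMIs (counted RNA molecules), at least 300 genes and at most 15% mitochondrial UMIs, the control library held 8310 cells and the LTS library 4835, with medians of 14889.5 and 18779 UMIs. Non-immune cells made up 74.1% and 59.6% of them. The 2 libraries shared 13 cell barcodes, where 5.91 would be shared by chance, and none was a T cell-like cell in both. Cells were clustered without the 10 genes. The cluster called T cell-like carried 9 of the T cell markers and was led by Gzma, Nkg7, Ms4a4b, Ltb and Ccl5, of which Gzma also stands among the natural killer (NK) cell markers. It held 96 control cells (1.16% of cells, interval 0.937 to 1.41) and 481 LTS cells (9.95%, 9.12 to 10.8), with medians of 2093 and 3235 UMIs. The 7 constant genes of the receptor chains that were looked for were not among the genes counted, so the alpha-beta or gamma-delta receptor of these cells was not determined.

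All 10 genes were higher per UMI in LTS than in control T cell-like cells, but by unequal amounts. The coreceptor genes Cd8b1 and Cd8a differed by 3.82-fold and 2.92-fold and the 3 CD3 chains by 2.28-fold to 2.35-fold. Cd28 and Cd247 differed less, and the intervals of Cd6, Cd4 and Cd5 included a ratio of 1. Thus 7 of 10 intervals lay above 1, against 6.4% of the 7138 genes with at least 20 CPM (UMIs of the gene scaled to a common total per class) in either library, and 0 lay below 1, against 17.3% of those genes. The median log2 ratio of the 10 genes, on CPM plus 5, was 0.95, against -0.18 for all genes tested. Over 15 alternatives in choosing or scaling the cells, the ratios of Cd3d, Cd3e, Cd3g, Cd8a, Cd8b1 and Cd4 stayed above 1. Their size did not hold: in cells of any cluster with at least 2 T cell markers and no C1q UMI (40 control and 334 LTS cells), a choice made after seeing the data, the log2 ratios were 0.46 for Cd3d, 0.78 for Cd3e, 0.60 for Cd3g, 1.04 for Cd8a, 1.09 for Cd8b1 and 0.04 for Cd4, and those of Cd247 (-0.05), Cd28 (-0.08), Cd5 (-0.50) and Cd6 (-0.28) were below 0. A finer clustering, which left 62 control and 172 LTS cells in the class, gave 0.64 for Cd3d, 0.75 for Cd3e, 0.70 for Cd3g, 0.60 for Cd8a and 0.44 for Cd8b1. It raised Cd4 to 1.03, Cd28 to 0.90 and Cd247 to 0.74, so the CD8 genes and the trio no longer led and the order of the 10 genes depends on the choice of cells.

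Markers of several cell types also differed between the libraries within the class. T cell markers outside the 10 genes, such as Lck, Thy1 and Bcl11b, summed to 1407 CPM in control and 2630 CPM in LTS, a log2 ratio of 0.90. Of the 10 measured, 9 were higher in LTS, and Trat1 gave 0 and 4 UMIs. The 9 NK cell markers summed to 1873 and 2652 CPM, of which Gzma gave 1625 and 2316 CPM, and Klra8 was at 0 in both. The NK receptor gene Ncr1 went the other way, with 46.9 CPM in control and 8.61 CPM in LTS. So did Klrb1c with 26.8 and 5.92 CPM and Klra7 with 16.8 and 3.23 CPM, while Eomes was slightly lower in LTS (33.5 and 30.7 CPM). Other NK markers were higher in LTS: Klre1 stood at 57.0 and 126 CPM, Klri2 at 13.4 and 54.4 CPM and Xcl1 at 53.6 and 107 CPM. The 11 microglial markers summed to 543 and 280 CPM, with Tmem119 at 13.4 and 9.69 CPM, but Sparc gave 72 of the 162 control UMIs and Gpr34 was higher in LTS (13.4 and 41.4 CPM). The 8 B cell markers summed to 36.9 and 18.8 CPM; all 11 control UMIs were of Blk (8) and Cd79b (3), and the other markers, such as Cd79a with 0 and 8 UMIs, were at 0 in control. Without the 14 control and 12 LTS cells that held an Ncr1 or Klrb1c UMI, the log2 ratio of Cd3g was 1.17, against 1.20 with them. Without cells holding a C1q UMI it was 1.00. The part of the other markers in the differences was not tested. A smaller amount of RNA per T cell and fewer true T cells in the control class cannot be told apart from the sums alone.

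**Figure D1:**
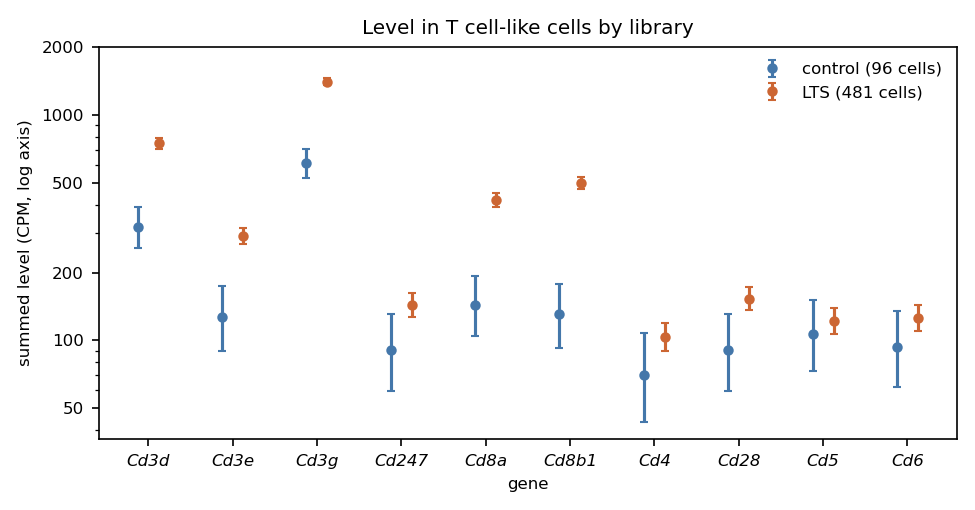
Summed level of each gene in T cell-like cells (CPM, log axis) for the control library (96 cells) and the LTS library (481 cells); points are the sums and bars their exact 95% Poisson intervals. The intervals of Cd3d, Cd3e, Cd3g, Cd8a, Cd8b1 and Cd28 do not overlap between libraries, whereas those of Cd247, Cd4, Cd5 and Cd6 do.

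Among the signalling chains, Cd3g gave the most UMIs. It gave 182 UMIs in control cells (610 CPM, 524 to 705) and 2611 in LTS cells (1406 CPM, 1352 to 1460), a ratio of 2.30 (1.98 to 2.69). Cd3d, the delta chain, gave 95 UMIs (318 CPM) and 1389 UMIs (748 CPM), a ratio of 2.35 (1.91 to 2.92). Cd3e, the epsilon chain that pairs with both of the others, gave 38 UMIs (127 CPM) and 540 UMIs (291 CPM), a ratio of 2.28 (1.64 to 3.26). The make-up of the trio was nearly the same in both libraries: Cd3g held 57.8% of the Cd3d, Cd3e and Cd3g UMIs in control (52.1 to 63.3) and 57.5% in LTS (56.1 to 59.0), and Cd3e held 12.1% and 11.9%. Cd247 gave 27 UMIs (90.5 CPM) and 268 UMIs (144 CPM), a ratio of 1.59 (1.07 to 2.47), whose interval overlaps those of the trio. In cells that held at least 1 UMI of the trio (77 control and 466 LTS cells), the ratio of Cd247 was 1.46 and its interval, 0.975 to 2.28, included 1, while the trio, which chose these cells, stood at 2.02 to 2.08.

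The 3 CD3 genes lie together on chromosome 9 of GRCm38 (mm10). Cd3g (chr9:44969572-44980431, minus strand) and Cd3d (chr9:44981786-44987339, plus strand) are divergent, with 1354 bases between their starts, and Cd3e (chr9:44998740-45009627, minus strand) begins beyond the far end of Cd3d, which it faces across 11400 bases. Cd247 is on chromosome 1 (chr1:165788681-165877277, plus strand) and overlaps Pou2f1 on the opposite strand; the labels do not say whether counting used the strand, so its reads may not be fully separable. Since the trio kept one proportion in both libraries, the 250 bases before each start are shown (RefSeq, GRCm38.p6, read on the gene's strand), with Cd8a for contrast. Capitals mark AGGAAG or its complement CTTCCT, the core bound by ETS factors.

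Cd3g chr9:44980432-44980681: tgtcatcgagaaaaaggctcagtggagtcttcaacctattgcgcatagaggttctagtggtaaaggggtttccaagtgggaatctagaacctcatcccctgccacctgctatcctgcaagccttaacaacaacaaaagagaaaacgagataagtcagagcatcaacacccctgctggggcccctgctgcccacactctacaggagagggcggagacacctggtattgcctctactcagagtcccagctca
Cd3d chr9:44981536-44981785: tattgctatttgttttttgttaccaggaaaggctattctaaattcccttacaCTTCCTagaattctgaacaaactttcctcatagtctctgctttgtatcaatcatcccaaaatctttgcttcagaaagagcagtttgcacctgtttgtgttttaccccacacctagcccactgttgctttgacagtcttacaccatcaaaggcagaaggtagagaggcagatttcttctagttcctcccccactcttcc
Cd3e chr9:45009612-45009861: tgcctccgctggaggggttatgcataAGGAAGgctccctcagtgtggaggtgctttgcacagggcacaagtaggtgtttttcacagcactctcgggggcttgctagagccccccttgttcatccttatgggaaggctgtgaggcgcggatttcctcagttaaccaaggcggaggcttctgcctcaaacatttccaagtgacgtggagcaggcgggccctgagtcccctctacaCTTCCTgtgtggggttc
Cd8a chr6:71373177-71373426: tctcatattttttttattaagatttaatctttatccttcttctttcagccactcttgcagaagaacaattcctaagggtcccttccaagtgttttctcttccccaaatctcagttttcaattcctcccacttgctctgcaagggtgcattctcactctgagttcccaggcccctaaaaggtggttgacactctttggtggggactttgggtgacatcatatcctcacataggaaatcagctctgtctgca

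Promoter sequences were matched for 6 of the 10 genes: these 4, Cd247 and Cd5. On either strand, the ETS letters occurred in 4 of the 6 (Cd247, Cd3d, Cd3e and Cd5) and in 29.5% of 32851 promoters of the same length. The E-box letters CAGNTG occurred in 4 (Cd247, Cd3g, Cd3d and Cd5), against 44.8%. The GATA letters AGATAA occurred in Cd3g, against 9.99% of all promoters, the RUNX letters TGTGGT in 0 of the 6, against 14.0%, and TATAAA in 0, against 12.4%. None of these motifs was in all 3 of the Cd3g, Cd3d and Cd3e windows.

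The CD8 coreceptor genes had the highest ratios of the 10 in the class as clustered here, though not in the finer clustering given above. Cd8b1 (chr6:71322788-71337494, plus strand), the beta chain, gave 39 UMIs in control (131 CPM, 92.9 to 179) and 928 in LTS (500 CPM, 468 to 533), a ratio of 3.82 (2.78 to 5.41). Its neighbour Cd8a (chr6:71373427-71379173, plus strand), 35932 bases away, gave 43 UMIs (144 CPM) and 781 UMIs (420 CPM), a ratio of 2.92 (2.15 to 4.07). Cd4 (chr6:124864692-124888221, minus strand) gave 21 UMIs (70.4 CPM) and 193 UMIs (104 CPM), a ratio of 1.48 (0.939 to 2.44). Cd8a held 52.4% of the Cd8a and Cd8b1 UMIs in control (41.1 to 63.6) and 45.7% in LTS (43.3 to 48.1), intervals that overlap. The pair was found together in 15 control and 210 LTS cells, Cd8a without Cd8b1 in 2 and 26, and Cd8b1 without Cd8a in 4 and 33.

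Among the costimulatory genes, Cd28 (chr1:60716800-60773359, plus strand) gave 27 UMIs in control (90.5 CPM) and 285 in LTS (153 CPM), a ratio of 1.70 (1.14 to 2.62). Cd5 (chr19:10717116-10739002, minus strand) gave 32 UMIs (107 CPM) and 226 UMIs (122 CPM), a ratio of 1.13 (0.781 to 1.70), the nearest to 1 of the 10. Cd6 (chr19:10789341-10830058, minus strand), 50338 bases from Cd5, gave 28 UMIs (93.8 CPM) and 234 UMIs (126 CPM), a ratio of 1.34 (0.905 to 2.06). Control cells thus held Cd5 and Cd6 at levels whose intervals overlapped those of LTS cells while their CD3 trio was lower.

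Detection in single cells was compared at equal depth. With each cell thinned to 1000 UMIs, Cd3g was found in 45.8% of control cells (35.6 to 56.3) and 72.8% of LTS cells (68.6 to 76.7), Cd3d in 24 of 96 control cells and 50.7% of LTS cells, and Cd3e in 8.33% and 30.6%. These are from 1 draw; the shares expected over all draws were 13.4% and 25.9% for Cd3e and 44.0% and 72.5% for Cd3g. Cd8a was found in 11.5% and 28.5% and Cd8b1 in 13.5% and 33.9%. For these 5 genes the LTS interval lay above the control interval, which was so for 0.869% of genes tested. The other 5 overlapped: Cd247 at 7.29% and 11.4%, Cd4 at 7.29% and 7.90%, Cd28 at 11.5% and 14.6%, Cd5 at 7.29% and 10.6%, and Cd6 at 8.33% and 10.6%. Without thinning the shares were 66.7% and 94.6% for Cd3g, 17.7% and 49.1% for Cd8a, and 18.8% and 20.8% for Cd4. With the cells chosen by T cell markers described above, 3 genes rather than 5 had separate intervals.

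The genes depended on depth to different degrees. In the LTS library, Cd3g was found in 75.8% of 62 cells with 1000 to under 2000 UMIs and in 96.8% of 281 cells with 2000 to under 4000, and stood at 99.1% and 96.3% in the deeper ranges. Cd8a was almost flat, at 43.5%, 50.2%, 50.5% and 44.4% over the 4 depth ranges. Cd247 was found in 4.84%, 33.5%, 48.6% and 66.7% of cells over the same ranges, so its share was higher in each deeper range. Between the shallowest and the deepest range, Cd5 went from 9.68% to 70.4% and Cd4 from 4.84% to 40.7%. Had every LTS cell drawn Cd8a at the level of the class, 73.4% of them would have held a UMI, and 49.1% did; for Cd8b1 these shares were 78.6% and 50.5%, and for Cd4 30.8% and 20.8%. For Cd3e they were 61.4% and 62.6%, and for Cd3g 97.3% and 94.6%.

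**Figure D2:**
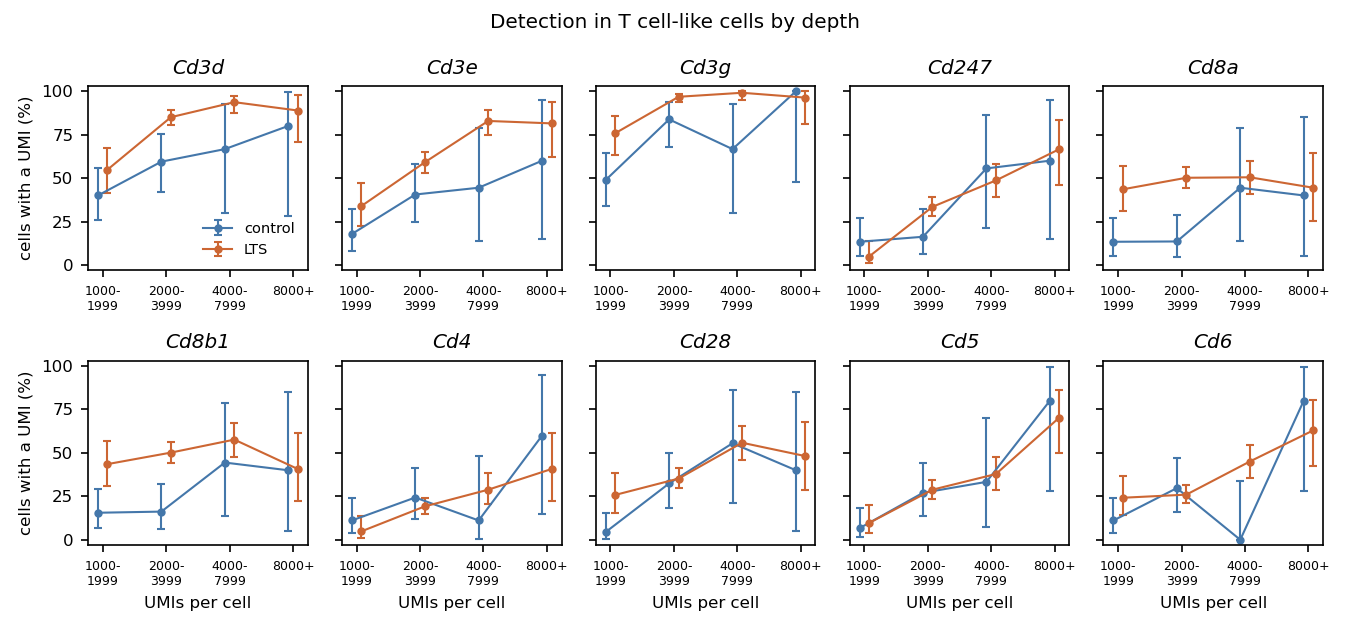
Share of T cell-like cells with a UMI of each gene (percent) by UMIs per cell, for control and LTS cells, with exact 95% binomial intervals. Cd8a stays near 43.5% to 50.5% in LTS cells at every depth, whereas Cd247 and Cd5 climb to 66.7% and 70.4%; the deepest control ranges hold 9 and 5 cells.

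The trio was also compared at matched depth. Within each depth range the LTS over control ratio of the summed Cd3d, Cd3e and Cd3g was above 1: 1.71 (1.31 to 2.24) at 1000 to under 2000 UMIs, 1.73 (1.48 to 2.04) at 2000 to under 4000, 4.29 (2.99 to 6.38) at 4000 to under 8000 and 2.72 (1.99 to 3.80) at 8000 or more. The last 2 rest on 9 and 5 control cells, and the first 2 on 45 and 37. The pooled class stood at 1055 CPM of the trio in control and 2444 CPM in LTS. Not every gene kept its direction: in the shallowest range Cd247 and Cd4 both stood at 0.353 (0.0571 to 1.65), and in the next, which holds most LTS cells, Cd4 stood at 0.969, Cd5 at 0.953, Cd28 at 0.945 and Cd6 at 0.850, all with intervals that included 1. Cd28 thus had an interval above 1 in the whole class but not there.

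Co-detection showed how complete the CD3 set was per cell. In thinned control cells, 39 of 96 held none of Cd3d, Cd3e and Cd3g, 39 held 1 of them, 17 held 2 and 1 held all 3. In thinned LTS cells the counts were 59, 162, 201 and 59 of 481. At full depth 80.2% of control cells (70.8 to 87.6) and 96.9% of LTS cells (94.9 to 98.2) held at least 1, with a median of 2.5 UMIs of the trio per control cell and 9 per LTS cell. Of the cells with none, 8 of 19 in control and 5 of 15 in LTS held an Ncr1 or Klrb1c UMI, against 6 of 77 and 7 of 466 of the cells with the trio. None of the 10 genes was found in 12 control and 8 LTS cells. The Cd5 and Cd6 pair also overlapped: Cd6 was found in 52.0% of LTS cells with Cd5 and in 23.4% of those without, but after thinning the shares were 13.7% and 10.2%, with overlapping intervals, and in control cells, at full depth, 45.0% and 14.5%.

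The coreceptors were all but exclusive of each other. Only 3 of 481 LTS cells and 0 of 96 control cells, which by 3 counts of the total allows a share of up to 3.13% (exact upper bound 3.77%), held UMIs of both CD4 and CD8 genes. At full depth, 266 LTS cells held Cd8a or Cd8b1 only, 97 held Cd4 only and 115 held neither; in control these were 21, 18 and 57 cells. Among cells with 1 kind of coreceptor, 53.8% of 39 control cells (37.2 to 69.9) and 73.3% of 363 LTS cells (68.4 to 77.8) carried CD8 genes. After thinning the shares were 70.8% of 24 cells (48.9 to 87.4) and 84.9% of 252 cells (79.9 to 89.1), and the intervals overlapped on both scales. Cd4 was the sparser of the coreceptor genes: the LTS cells that held Cd4 had 1.93 UMIs of it on average, against 3.82 of Cd8b1 in cells that held that gene.

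**Figure D3:**
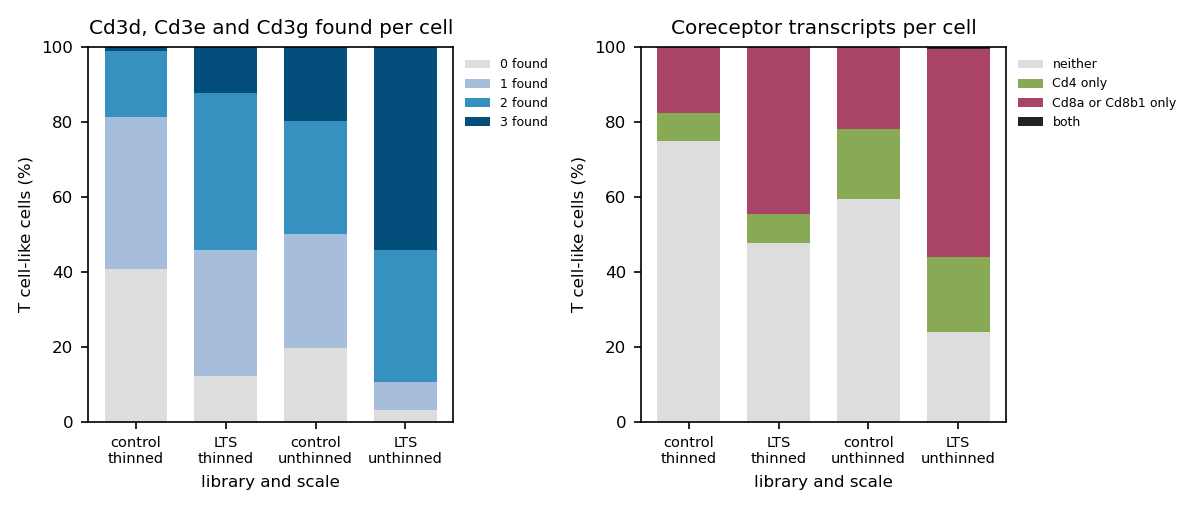
Shares of T cell-like cells (percent) by how many of Cd3d, Cd3e and Cd3g were found (left) and by coreceptor genes found (right), for each library thinned to 1000 UMIs per cell and unthinned. Thinned control cells with no CD3 chain make up 40.6%, against 12.3% in LTS; cells with both coreceptors are barely visible in unthinned LTS cells and absent from the other bars.

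In LTS cells the CD3 trio and the other genes ran in opposite directions between the coreceptor states. Cells with CD8 genes only held more Cd3g (1722 CPM against 1012 CPM in Cd4-only cells, 1.70-fold, 1.54 to 1.88), Cd3d (1.53-fold, 1.34 to 1.76) and Cd3e (1.77-fold, 1.42 to 2.24). Cd4-only cells held more Cd247 (224 CPM against 109 CPM, a ratio of 2.06, 1.56 to 2.71), Cd5 (200 CPM against 82.9 CPM, 2.41, 1.78 to 3.27) and Cd28 (206 CPM against 134 CPM, 1.54, 1.18 to 2.01). For Cd6 the ratio was 1.35 and its interval began at 1.00. Ratios between the states are given from here on as Cd4-only over Cd8-only cells. In that direction, 3 of the 7 genes not used to define the states had intervals below 1, against 7.06% of 6435 genes, and 4 had intervals above 1, against 11.4%. Median depths were alike, 3364.5 UMIs for Cd8-only and 3659 for Cd4-only cells, and in cells with at least 2000 UMIs the ratios were 0.58 for Cd3g, 1.96 for Cd247 and 2.40 for Cd5. The states also differed in lineage factors: Runx3, which maintains the CD8 lineage, stood at a ratio of 0.43 (0.332 to 0.552), and Zbtb7b, which sets the CD4 lineage, at 3.53 (1.67 to 7.83). Foxp3, the regulatory T cell factor, gave 19 UMIs in Cd4-only cells and 0 in Cd8-only cells.

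In the control library the CD3 trio did not show that direction for every chain. With 18 Cd4-only and 21 Cd8-only cells, Cd5 had a ratio of 2.74 whose interval began just above 1 (1.00 to 8.62), and 183 of 7906 genes (2.31%) had an interval above 1. Intervals of the other 6 genes included 1, with Cd247 at 2.37 (0.842 to 7.62), Cd3e at 0.515 (0.193 to 1.26), Cd3g at 1.00 (0.647 to 1.55) and Cd3d at 1.25 (0.734 to 2.13), and 1.91% of genes had an interval below 1. In cells with at least 2000 UMIs, Cd3d stood at 1.55 (0.875 to 2.78) in control and 0.640 (0.558 to 0.732) in LTS, intervals that do not overlap. Without that depth limit the Cd3d ratio in LTS was 0.652 (0.569 to 0.745), and its interval overlapped that of control. Comparing the libraries within a state, the summed trio was higher in LTS in Cd8-only cells (1038 against 2983 CPM, 2.87-fold, 2.34 to 3.57), in Cd4-only cells (1.76-fold, 1.40 to 2.22) and in cells with neither (1.79-fold, 1.49 to 2.16). The interval of the Cd8-only cells lay above both others. Since the states were read from the same cells' UMIs, cells with little RNA fall more often among those with neither.

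**Figure D4:**
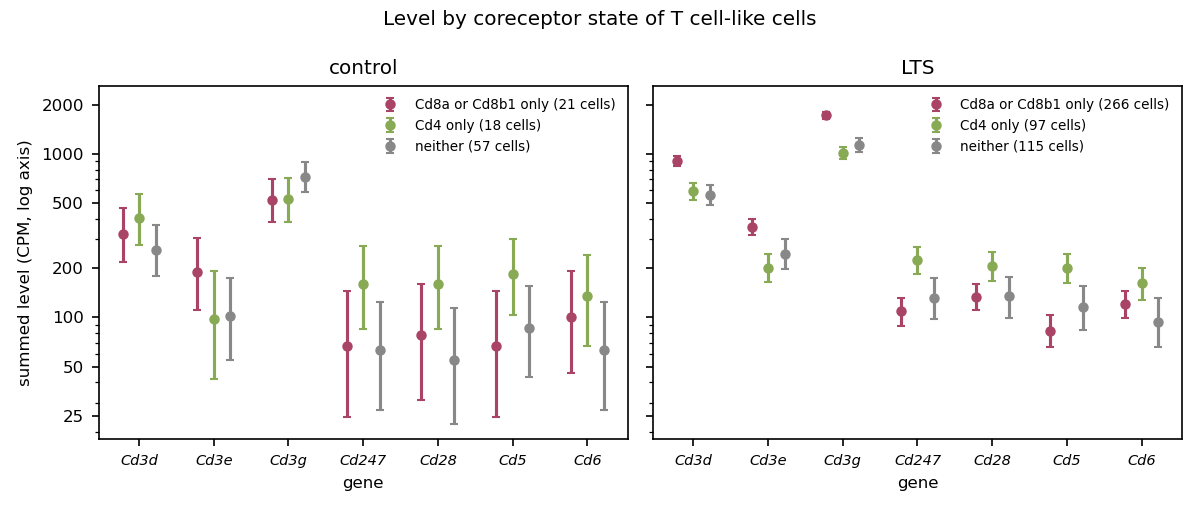
Summed level (CPM, log axis) of the 7 genes not used to define the coreceptor states, in control cells (left) and LTS cells (right), with exact 95% Poisson intervals. In LTS cells Cd3g is highest in Cd8-only cells (1722 CPM) and Cd5 and Cd247 in Cd4-only cells (200 and 224 CPM); control intervals overlap.

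Genes of the same signalling path were described from a list of 55, of which 48 were in the gene list and 47 passed 20 CPM. On the log2 scale of CPM plus 5, 10 of the 47 were more than 2-fold higher in LTS T cell-like cells, against 3.89% of all genes tested, and 0 more than 2-fold lower, against 8.32%; 5 of the 10 coreceptor and CD3 genes were more than 2-fold higher. By counting interval, 18 lay above 1, against 6.4% of all genes tested, 2 below, against 17.3%, and 27 included 1, and the list's median log2 ratio was 0.47. Of 21 kinases and adaptors, 12 intervals lay above 1 and 1 below, with a median of 0.66. Of 17 negative regulators 4 lay above and 1 below (median 0.33), and of 9 lineage factors 2 above and 0 below (median 0.28). The largest log2 ratios were those of Sit1, an inhibitory transmembrane adaptor, at 1.87 on 3 and 93 UMIs (4.98-fold, 1.65 to 24.6), Themis, a T cell developmental signalling protein, at 1.78 (3.75-fold, 2.06 to 7.61), and Bcl11b, a T cell identity factor, at 1.37 (2.66-fold, 1.90 to 3.83). Among the smallest were Rasa2, a Ras inhibitor, at -0.91 (ratio 0.502, 0.313 to 0.832), and Ubash3b, a phosphatase that restrains Zap70, at -0.63 (0.617, 0.369 to 1.08). Themis and Bcl11b are also among the T cell markers that named the cluster.

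Over the 12 sums of 6 cell classes in 2 libraries, the genes most like the CD3 trio in level were Nkg7 (Pearson r 0.998), Tbc1d10c (0.997), Ikzf3, Cxcr3 and Ptprcap (0.996, 0.996 and 0.995). These correlations rest on the 2 T cell-like sums standing far above the other 10, and they share libraries.

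Outside the T cell-like cells the CD3 chains were rare. In the non-immune cells, which should lack them, a UMI of the trio was found in 0.617% of control cells and 3.71% of LTS cells at medians of 18358 and 38172 UMIs, and after thinning in 0.0325% and 0.104%. Barcodes of 1 to 100 UMIs, which hold mostly free RNA, contained Cd3g at 2.40 CPM in control and 30.8 CPM in LTS, against 0.240 and 0.827 CPM in the non-immune cells. Control also held 50104 barcodes of 500 to under 1000 UMIs, with 31639812 UMIs of all genes, against 3341 and 2074200 in LTS. How far these barcodes hold free RNA was not tested. Nor was its part in the 45 of 96 control T cell-like cells with under 2000 UMIs. Subtracting the non-immune level left the log2 ratio of Cd3g in T cell-like cells at 1.20. That level is too small beside their 610 and 1406 CPM to move the ratio, and the level of the free RNA was not subtracted. The subtraction also left free RNA of other genes in the UMI totals, and any effect of that on the ratio was not tested. Of all UMIs of the trio, the T cell-like cells held 65.8% in control and 84.4% in LTS, while holding 0.180% and 1.24% of UMIs of all genes. At least 2 of the 3 chains were found in 8 of 8214 other control cells and 18 of 4354 other LTS cells. All 18 carried another T cell marker, 6 were marked as likely doublets, and they held 120 of the 242 trio UMIs in those cells. For Cd247, Cd28 and Cd4, only 38.6%, 38.0% and 33.9% of control UMIs were in T cell-like cells, so levels over a whole library of these genes reflect other cells as well.

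Some cells outside the class stood above that level. LTS B cell-like cells held Cd28 at 18.8 CPM, from 5 UMIs in 2 of 74 cells, and LTS monocyte-like cells held Cd3g at 8.64 CPM and Cd8b1 at 5.76 CPM, of which 1 cell gave 83.3% and 100% of the UMIs. Monocyte-like cells held Cd4 at 7.55 CPM (11 UMIs in 10 of 430 cells) in control and 9.36 CPM (13 UMIs in 8 of 230) in LTS, and none of these cells held a UMI of the trio or another T cell marker. In the non-immune cells Cd4 stood at 0.0713 and 0.0743 CPM. An unnamed cluster (cluster 18) of 57 control and 39 LTS cells, led by Rnase6, Bcl11a and MHC class II genes and carrying dendritic cell markers, held Cd8a in 9 and 4 cells, Cd8b1 in 4 and 2 and Cd4 in 6 and 4, with 0 and 1 UMIs of the trio. All cells there with Cd8a or Cd4 also held Siglech or Ccr9, genes of plasmacytoid dendritic cells, and none of the 16 and 8 cells with Xcr1 or Clec9a and neither of those genes held Cd8a. These counts rest on few cells.

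**Figure D5:**
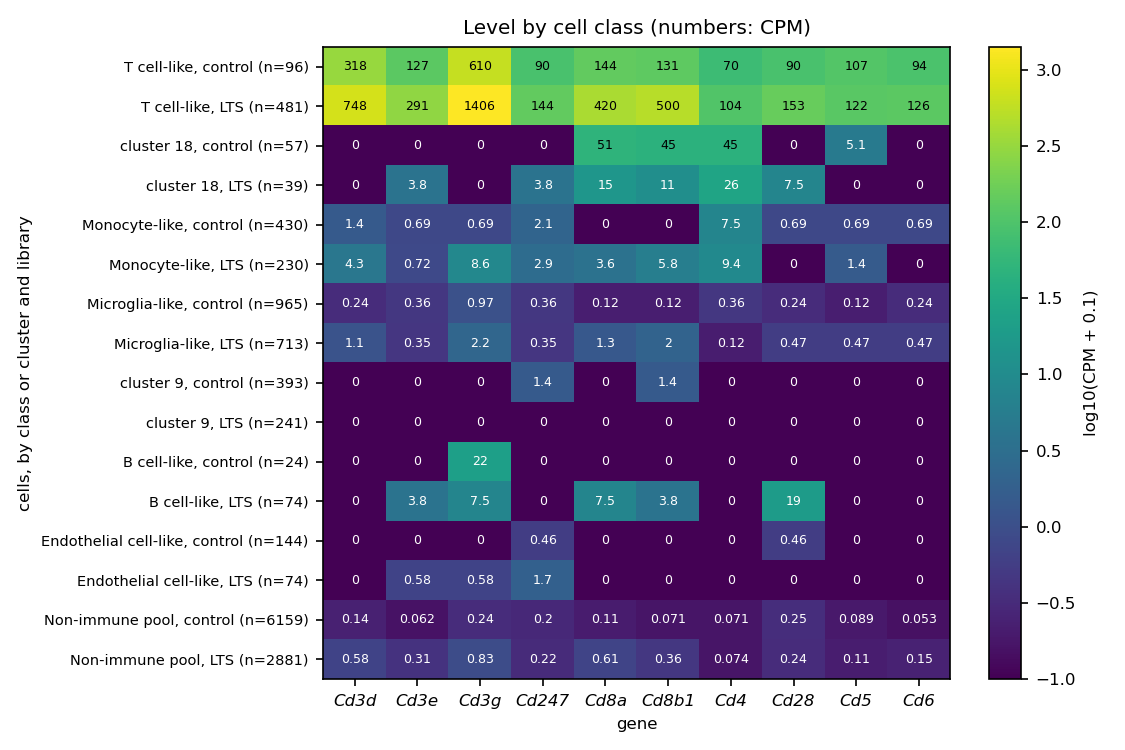
Level of each gene (numbers are CPM, colour is log10 of CPM plus 0.1) in T cell-like cells and other cell groups of each library. T cell-like cells are highest for every gene; Cd4 in monocyte-like cells (7.55 and 9.36 CPM) and Cd8a and Cd4 in cluster 18 stand above the other groups drawn. Cluster 9 is unnamed and led by Ccl12, Aif1 and C1q genes.

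Ligand genes were spread over other cells. Cd86, a CD28 ligand, stood at 92.2 CPM in control and 115 CPM in LTS microglia-like cells and at 138 and 165 CPM in monocyte-like cells, against 1.03 and 0.399 CPM in non-immune cells. Cd80, the other CD28 ligand, reached no more than 3.43 CPM in any of these. Conventional dendritic cell-like cells, only 18 in control and 19 in LTS, held Cd86 at 183 and 241 CPM and, in LTS, Cd80 at 30.1 CPM (4 UMIs in 4 cells). Alcam, the CD6 ligand, stood at 61.6 and 62.5 CPM in non-immune cells and 31.7 and 28.3 CPM in microglia-like cells. H2-Ab1, part of the MHC class II molecule that CD4 binds, stood at 206 and 456 CPM in microglia-like and 2963 and 3908 CPM in monocyte-like cells. H2-K1, of MHC class I, was found at 206 and 208 CPM in non-immune cells and at 1304 and 1591 CPM in microglia-like cells.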

How the data were processed

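The authors deposited raw whole-number UMI counts per gene and barcode for 2 libraries, produced by Cell Ranger 4, per the matrix headers, on mm10, per the submitters' processing notes; all barcodes are listed, with totals of 165796852 (control) and 149413534 (LTS) UMIs. The labels do not name separate animals. Cells were clustered in scanpy 1.11.5 (2000 variable genes, 30 components, 15 neighbours, Leiden resolution 1) without the 10 genes and without receptor gene segments, and clusters were named by listed markers, 10 of the 13 T cell markers being among the genes counted. Scrublet marked 1 control cell (0.0120%), so it did not work there, and 85 LTS cells (1.76%); no doublet was removed. Summed counts were scaled to CPM; ratios have exact conditional intervals, CPM Poisson intervals and shares Clopper-Pearson intervals (scipy 1.17.1). For shares, each cell was thinned once to 1000 UMIs with a fixed seed. PCR and capture noise beyond UMIs, animals and libraries are not covered by these intervals. Log2 ratios use a pseudocount of 5 CPM, which understates differences of low genes. The ratio scripts were tested on simulated data. The 10 genes are all named; of the signalling list the 3 largest and 3 smallest log2 ratios were to be named, of which 1 of the smallest is not reported here, and of genes alike in pattern the 5 with the highest correlation. The members, lists and markers were chosen with earlier results of these data known. Gene coordinates are from GENCODE and promoter sequences from RefSeq, both of GRCm38.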

Additional observations from a re-analysis of the deposited data

Results flagged for a closer look

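Barcodes left out of the cells above also carried the CD3 chains in the LTS library. Among LTS barcodes removed for quality, nearly all for over 15% mitochondrial UMIs, 5 of 605 held 2 or 3 of Cd3d, Cd3e and Cd3g, against 1 of 817 in control. Among LTS barcodes with 500 to under 1000 UMIs, 5 of 3341 did, against 1 of 50104 in control. Both drew notice because they lie outside the cells analysed and above the count found in the control library, and the difference was not tested. T cell-like cells were also the larger share of the cells kept in LTS, at 9.95% against 1.16% in control. In total these barcodes held 45 and 49 UMIs of the trio in LTS and 3 and 61 in control, so by UMIs the shallow barcodes of control held more.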

How the results depend on the processing

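The count of genes with intervals above 1 was 7 and lay between 5 and 8 under the other settings that give a count; weighting cells equally and subtracting the non-immune level give ratios but no interval. In cells with at least 2 T cell markers and no C1q UMI, the log2 ratios of Cd247 and Cd28 reversed to -0.051 and -0.085. Those of Cd5 and Cd6 were also below 0, and 3 rather than 5 genes had separate detection intervals. These cells were chosen after seeing the data. They replaced planned selections on receptor constant genes, which could not be run because those genes were not among the genes counted. The LTS share of CD8 among coreceptor-positive cells was 84.9% after thinning to 1000 UMIs, 76.5% at 2000 UMIs and 73.3% without thinning. Signalling genes more than 2-fold lower numbered 0, but 1 with a pseudocount of 1 CPM and 2 without cells holding an Ncr1 or Klrb1c UMI. Of the remaining values for single genes, 208 moved by less than their counting interval and 48 by more, most of them shares that follow the depth thinned to. The median-of-ratios shift over all genes was -0.12 on the log2 scale; relative to it the log2 ratio of Cd3g was 1.32. No paired analysis was possible because each group is 1 library. Depth limits the control values: they rest on 96 cells and, for Cd4, on 21 UMIs.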
